A study of Homo sapiens with 2 samples.

Results

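The genes in question are the amino acid, sugar and lactate transporters of 9 solute carrier families (SLC1, SLC2, SLC3, SLC6, SLC7, SLC16, SLC36, SLC38 and SLC43). They were chosen by gene symbol, by a rule that uses no measured value but was set with earlier results of these data known. RefSeq lists 88 genes with such a symbol, and 1 of them, SLC38A12, had a named feature in the annotation used here, out of 14812 named genes in all. A named feature is 1 to which the annotation gave exactly 1 symbol, and genes with such a feature are called measured below. The other 87 symbols, and with them 8 of the 9 families, were not analysed here, so the values below describe 1 gene and cannot speak for the transporters as a group. RNA came from MCF-10A, a widely used line of human mammary epithelial cells that do not form tumours. The EGFP vector sample stably expressed EGFP alone, and the EGFP-ARHGAP4 sample stably expressed EGFP fused to ARHGAP4. Neither the promoter of the constructs nor whether a line was a single clone or a pool is given in the sources used here. Each line was measured on 1 Affymetrix whole-transcript array, so differences could not be set against replicates. Neither a p-value nor an SD between replicates is given. The arrays are called the vector array and the fusion array below.

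Solute carriers move small molecules across cell membranes. The SLC1, SLC7, SLC36, SLC38 and SLC43 families carry mainly amino acids, and SLC6 carries amino acids among other substrates. SLC2 carries glucose and related sugars, and SLC16 carries lactate and other monocarboxylates. The SLC3 proteins are the heavy chains that bring SLC7 partners to the membrane. Proliferating epithelial cells depend on such uptake for protein synthesis, for glycolysis and for the cystine that enters glutathione. SLC38 family members are best known as transporters of small neutral amino acids, glutamine among them; SLC38A12 is the current symbol of TMEM104, and its substrate is not stated here.

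SLC38A12, on chromosome 17, was measured by 1 feature. Its log2 expression value was 6.87 in the vector array and 6.84 in the fusion array. The values were nearly equal, with a difference (EGFP-ARHGAP4 minus EGFP vector) of -0.03 on the log2 scale, or 1.02-fold. Among all 14812 genes, 86.4% had a lower mean level, although signals of different features are only roughly comparable. The gene was above the level filter in both arrays, a filter set at 4.02, the median of all gene-level values, which 7685 genes passed with the higher of their 2 values. Of those 7685 genes, 7.43% had a difference as small as or smaller than that of SLC38A12 in absolute size. Their median difference was -0.10, with quartiles of -0.29 and 0.12, and SLC38A12 lay between these quartiles. After quantile normalization of the arrays the gene stood at 0.06, and after removal of the trend with level at 0.09, so its sign depended on the scaling. It stayed far from a log2 difference of 0.5 in either direction under every scaling tried. Of all named genes, 4.25% were higher by at least 0.5 and 6.47% lower by at least 0.5, and at 2-fold the shares were 0.581% and 0.486%. The count of measured transporters was 0 at both thresholds and in both directions.

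**Figure D1:**
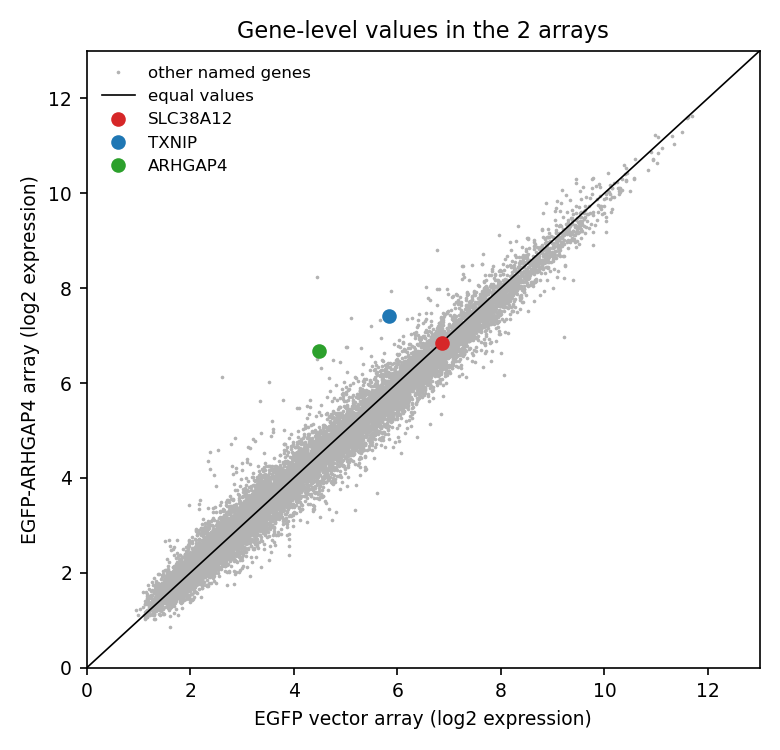
Gene-level log2 expression in the vector array (horizontal axis) and the fusion array (vertical axis), with 1 grey point per named gene and a line of equal values. SLC38A12 (red) lies on the line at 6.87 and 6.84, while TXNIP (blue) and ARHGAP4 (green) lie above it.

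The neighbourhood of SLC38A12 on chromosome 17 was examined by the order of genes in the RefSeq table. Of the 20 nearest measured genes past the level filter, 10 on each side, 13 were below 0. The median difference of the 20 was -0.12, near the -0.10 of all named genes past the filter, of which 58.5% lay below SLC38A12. The 20 neighbours ranged from -0.66 for JPT1 to 0.42 for SOX9, a transcription factor of epithelial progenitor cells. Of these 20 neighbours, 3 were lower by at least 0.5 and 0 higher, beside 9.81% and 5.15% of all named genes past the filter. They were JPT1, the non-coding gene LINC00673, and NUP85, which encodes a subunit of the nuclear pore. The nearest measured gene past the level filter before SLC38A12, the kinesin gene KIF19, was at -0.27. KIF19 was above the filter in the vector array only. The nearest measured gene past the filter after SLC38A12, CDR2L, was at -0.41. All 507 genes of chromosome 17 past the filter had a median of -0.05, with quartiles of -0.22 and 0.15, and SLC38A12 fell inside that range as well.

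**Figure D2:**
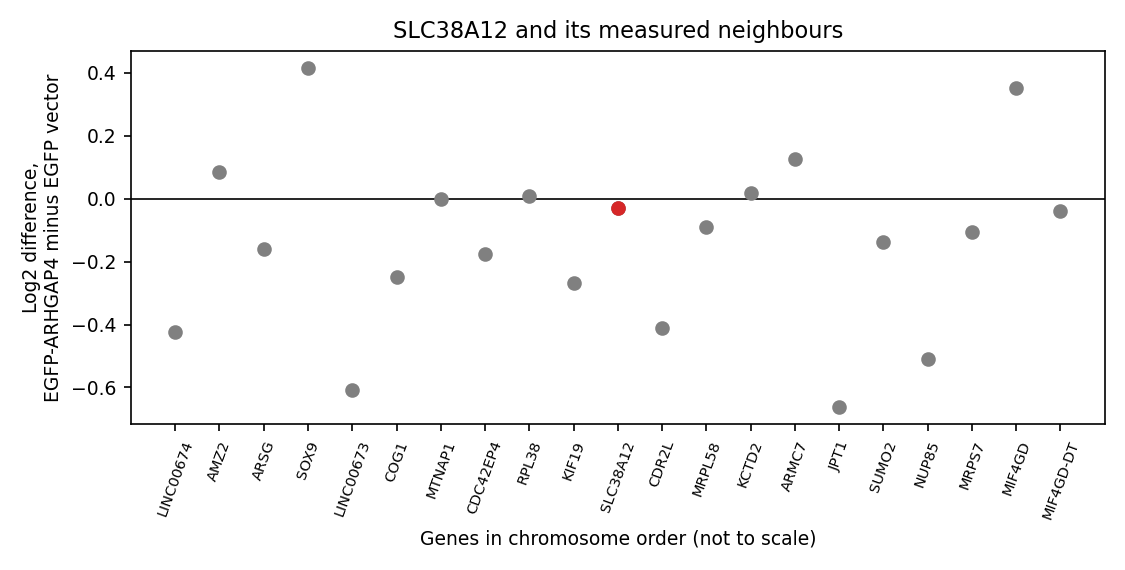
Log2 difference (EGFP-ARHGAP4 minus EGFP vector, vertical axis) of SLC38A12 (red) and of the 10 nearest measured genes past the level filter on each side (grey), in chromosome order and not to scale. The neighbours spread from -0.66 to 0.42 around SLC38A12 at -0.03.

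A few named features have symbols close to those of the transporters without being members, and they were named after their values were seen. SLC2A1-DT is a divergent transcript beside the glucose transporter gene SLC2A1, and SLC7A11-AS1 is an antisense transcript at the cystine transporter gene SLC7A11. SLC2A1-DT stood at 3.10 in the vector array and 2.97 in the fusion array. SLC7A11-AS1 stood at 2.61 and 2.45. Both lay below the level filter in both arrays, and neither gives the level of its neighbouring transporter. Among other solute carriers, SLC66A1, a lysosomal exporter of cationic amino acids, was at 5.82 and 5.59, a difference of -0.23. SLC60A1, also known as MFSD4A, was at 3.32 and 4.06, a difference of 0.74 from a level below the filter in the vector array. Its relative SLC60A2, also known as NaGLT1, was at 5.89 and 5.76, a difference of -0.14. A fixed list of 195 RefSeq genes in other SLC families, which leaves out the families of the genes just named, had 3 measured members: SLC49A3 at 0.37, SLC33A2 at 0.16 and SLC49A4 at 0.04 on the log2 difference scale.

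Genes that act with the transporters more often had a named feature. Over 6 lists, 102 of 162 listed genes had a named feature. Among the 102, 8 had a difference of 0.5 or more and 5 of -0.5 or less, or 7.84% and 4.90%, beside 4.25% and 6.47% of all named genes. The level filter was passed by 83 of the 102, and of all named genes past it the shares were 5.15% and 9.81%. The median difference of the 102 was -0.01 beside -0.03 over all named genes, and 89 of the 102 differed by less than 0.5.

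Among 12 measured partners and regulators of the transporters, TXNIP alone differed by 0.5 or more. The shares higher and lower were 8.33% and 0% of the list, beside 4.25% and 6.47% of all named genes. The level filter was passed by 11 of the 12, and of all named genes past it the shares were 5.15% and 9.81%. TXNIP encodes an arrestin-like protein that promotes removal of glucose transporters from the cell surface and whose RNA is known to follow glucose supply. Its mean log2 value was 5.84 in the vector array and 7.41 in the fusion array, 2.96-fold higher. Both of its features went the same way, one from 7.27 to 8.89 and the other from 4.42 to 5.93. Its paralog ARRDC4, which also acts on glucose uptake, was at 5.22 and 5.53, a difference of 0.30. BSG, basigin, the chaperone of the lactate transporters, had the lowest difference of this list at -0.37, from 10.85 to 10.48. EMB, embigin, the other known chaperone of lactate transporters, was at -0.15.

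Of 27 measured genes of amino acid sensing by the kinase complex mTORC1, 4 were higher by at least 0.5 and 2 lower, and the list median was -0.05. These are 14.8% and 7.41% of the list, beside 4.25% and 6.47% of all named genes, so the lower share is near that of all genes. The level filter was passed by 23 of the 27, and of all named genes past it the shares were 5.15% and 9.81%. The sestrins, stress-induced proteins that restrain mTORC1, of which SESN2 is a leucine sensor, were all higher. SESN1 stood at 5.46 in the vector array and 6.27 in the fusion array, and SESN2 at 5.71 and 6.37. SESN3 went from 2.11 to 2.93 and stayed below the level filter, where differences are less certain. The fourth higher gene was AKT1S1, an inhibitory subunit of mTORC1, at 0.58. The lower genes were FNIP1, a folliculin partner, at -0.58, and RRAGB, a Rag GTPase, at -0.52, the latter below the filter. MTOR itself was at 7.37 and 7.32.

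Of 21 measured genes of the amino acid response driven by the transcription factor ATF4, 4 were higher by at least 0.5 and 0 lower, with a list median of 0.00. These are 19% and 0% of the list, beside 4.25% and 6.47% of all named genes. The level filter was passed by 16 of the 21, and of all named genes past it the shares were 5.15% and 9.81%. DDIT4, an inhibitor of mTORC1 signalling, went from 9.45 to 10.21. It lies on chromosome 10, where its 20 nearest measured genes past the level filter had a median of 0.37. The part of that region in the value of DDIT4 was not tested. SESN2 belongs to this list too. ASNS, asparagine synthetase, went from 5.50 to 6.03, and ATF3, a stress-induced transcription factor, was at 0.50 with both values below the filter. ATF4 itself was at 8.07 and 8.14, and its target TRIB3 had the same value, 6.51, in both arrays.

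Among 25 measured amino acid enzymes, ASNS was the only one higher by at least 0.5 and SHMT1, the cytosolic serine hydroxymethyltransferase, the only one lower, at -0.52, with a list median of 0.06; each is 4.0% of the list, near or below the 4.25% and 6.47% of all named genes. The serine synthesis enzymes PHGDH and PSAT1 were at -0.37 and 0.26. Of 12 measured enzymes of glucose and lactate metabolism, HK2, a hexokinase, was lower by at least 0.5, from 6.84 to 6.24, and none was higher by that much. These shares, 8.33% and 0%, stand beside 6.47% and 4.25% of all named genes. All 12 enzymes passed the level filter, and of all named genes past it 9.81% were lower and 5.15% higher. The lactate dehydrogenase genes LDHA and LDHB were at -0.27 and -0.09. Of 11 measured genes of the glutathione system, KEAP1, which holds the transcription factor NRF2 in check, was lower, from 7.72 to 7.21. That is 9.09% of the list, beside 6.47% of all named genes and 9.81% of those past the filter, which 9 of the 11 passed. Of the 5 lower genes of all lists, RRAGB alone stayed past 0.5 after removal of the level trend, and HK2 and RRAGB after quantile normalization. The 8 higher genes stayed past 0.5 under both, and KYNU and SAT1 joined them after removal of the level trend. The shares of all named genes past 0.5 after these scalings are not given here. The medians of 4 of the 6 lists, at or below 0 as deposited, were above 0 after either of these scalings.

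**Figure D3:**
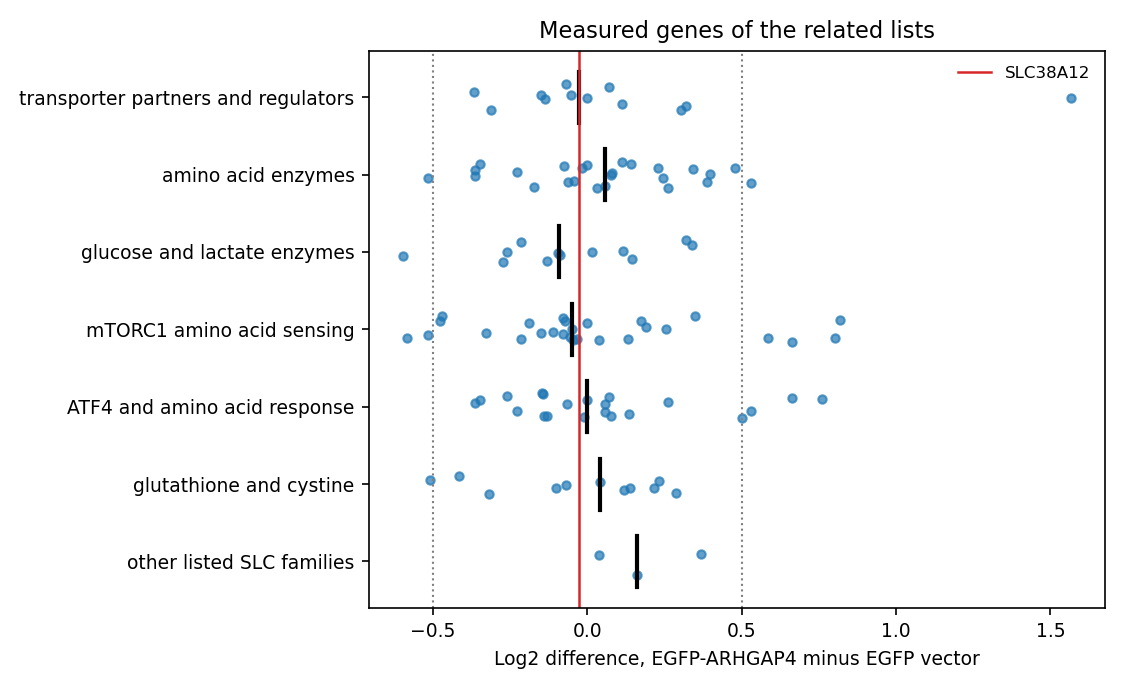
Log2 difference (EGFP-ARHGAP4 minus EGFP vector, horizontal axis) of each measured gene of the related lists, with 1 point per gene in each list. A gene on several lists, such as ASNS or SESN2, has a point in each. The list median is a black bar, SLC38A12 a red line, and dotted lines stand at -0.5 and 0.5. TXNIP, at 1.57, is the only point past 1, and the medians lie between -0.09 and 0.16.

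ARHGAP4 stood at 4.49 in the vector array and 6.68 in the fusion array, the direction of the sample labels. Of 13 epithelial markers 9 were measured, and 7 of these passed the level filter, KRT5 at 8.33 and 8.34 among them, while KRT14 was lower, at 9.21 and 6.96. EPCAM was higher, at 6.58 and 7.79, and so was the tight junction gene CLDN1, at 8.33 and 9.30; CLDN4 went from 2.69 to 3.42, below the filter in both arrays. The 3 fibroblast, 3 adipocyte and 2 neuronal markers measured were all below the filter in both arrays. Of 4 endothelial markers CLDN5 alone passed, at 4.31 and 4.32. The 3 blood cell markers ranged from 4.24 to 7.32 in the vector array and from 4.24 to 7.80 in the fusion array, with CD68, a lysosomal protein, the highest. The part of such cells in the values above was not tested.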

How the data were processed

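RNA of 2 MCF-10A lines was measured on 1 whole-transcript array each. The deposited table holds log2 expression values for 44629 features; log2 was inferred because the maximum of 12.8 exceeds the natural log of a 16-bit reading, 11.1. Methods of summarisation and normalization were not given in the sources used here. Having 1 array per line limits the precision. The platform annotation of 2020 gave exactly 1 symbol to 15835 features, called named here. The other 28794, with no symbol or with more than 1, were left out. Features of a gene were averaged. The pooled SD between differences of features of 1 gene was 0.21 over 336 genes, which is a spread between features and not between replicates.

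Members were found by symbol. The members, lists, thresholds and naming rule were chosen with earlier results of these data known. The rule named every member, ARHGAP4 and up to 2 genes per list with a difference of at least 0.5; other genes were named after their values were seen. Groups came from the genotype labels. No test was possible with 1 array per group. Alternatives were quantile normalization, centring, loess (span 0.3), the highest feature, a filter on mean level, a 1.5-fold threshold and leaving out chromosome 10. Gene order came from RefSeq (GRCh38.p14); coordinates are not printed. Tables were handled in Python 3.11.15 with numpy 2.4.6 and pandas 2.3.3, loess was fitted with statsmodels 0.14.6, plots were drawn with matplotlib 3.10.9, and the calculations were tested on simulated data.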

Additional observations from a re-analysis of the deposited data

How the results depend on the processing

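The SLC38A12 difference, which is also the median over the measured transporters, lay between -0.03 and 0.09 under the scalings (quantile normalization, loess, centring) and with the highest feature. The counts of transporters past 0.5 or 2-fold were 0 throughout. Only quantile normalization and loess could move this gene: it has 1 feature, lies on chromosome 17 and is above the mean level filter, 1.5-fold is a higher bar than 0.5, and centring left its value as deposited. The ARHGAP4 difference lay between 2.19 and 2.28. Alternatives for the related lists were added after seeing the data. The 5 lower genes became 2 after quantile normalization, 1 after loess and 1 at 1.5-fold. The 8 higher genes became 10 after loess and 5 at 1.5-fold. With the filter on mean level, 6 were higher and 4 lower, and without chromosome 10, 7 and 5. Shares of all named genes under these settings are not given here, so the counts cannot be set against them. The median of all named genes past the filter moved from -0.10 to -0.02 after quantile normalization and -0.01 after loess. At 1.5-fold the higher bar is the cause, and for the scalings the cause was not tested. No paired analysis was possible because each group has 1 array. Low signals limit values below the level filter.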
